A study of Homo sapiens with 6 samples.

Results

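The respiratory chain of the inner mitochondrial membrane passes electrons from NADH and succinate to oxygen, and most of its subunits are encoded in the nucleus, made in the cytosol and imported. Of the 60546 genes in the deposited table, the 59 whose symbol is on a fixed list of nuclear-encoded subunits were followed across all 6 libraries. The list held 36 genes of complex I, 4 of complex II, 9 of complex III and 10 of complex IV. All 59 symbols were found, and 58 of them had enough signal to be tested. The rule uses names only, not levels or differences between libraries.

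The libraries were made from HCT-116, an established human colon carcinoma cell line, infected with the viral vector PMSCV, which held either GOLPH3, a Golgi phosphoprotein, or no insert, and the study asked which genes differ between the 2 lines. GEO's labels give the genotype of every library as wild type and the tissue as colon, so the groups were taken from the titles. There were 3 libraries labelled GOLPH3, with P8, P12 and P13 in their titles, and 3 labelled Vector, with P11, P12 and P13. The methods of the study state that the cells came from different generations, but the labels do not say what P stands for, and nothing says that the libraries came from separately derived lines, so p-values measure the spread between these libraries only.

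Complex I (NADH dehydrogenase) takes electrons from NADH through a flavin and a row of iron-sulfur clusters to ubiquinone. Complex II (succinate dehydrogenase) feeds the same ubiquinone pool from the citric acid cycle and is encoded by the nucleus alone. Complex III (the cytochrome bc1 complex) hands electrons to cytochrome c, and complex IV (cytochrome c oxidase) hands them to oxygen. In complexes I, III and IV some subunits are made inside the mitochondrion and are joined by the nuclear-encoded ones described here. These include subunits that carry electrons, such as NDUFV1, CYC1 and UQCRFS1, and many are short proteins with short transcripts.

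The recovered reads totalled between 15708846 and 21900764 per library, and mitochondrial genes took 4.41% to 9.97% of them. Where a member has 0 reads, its level may be as high as 3 reads (2.47 to 3.29 normalized reads across the 6 libraries), a limit for counting error alone. For the GOLPH3 transcript itself, the libraries with that label did not show a higher level (log2 difference -0.31, standard error 0.27, adjusted p = 0.609, limma), so each group is called here by its label alone. The summed level of 14 colon epithelial markers was 62852 to 134427 normalized reads in the GOLPH3-labelled libraries and 30048 to 41165 in the Vector-labelled ones, with 2 of the 11 tested called higher and KRT20 at 0 everywhere. The summed level of 15 genes abundant in HEK293-like cells was 201 to 248 against 10502 to 26589 normalized reads. This list was in part taken from earlier results of these data, so its difference is no independent evidence of a cell type. Of these 15 genes 13 were called lower in the GOLPH3-labelled libraries, and 7, among them IRS4, UCHL1 and HAND1, were at 0 in every one of those 3 libraries. The summed level of 8 fibroblast markers was 825 to 1517 against 488 to 810.1 normalized reads, with 1 of the 6 tested called lower and DCN at 0 everywhere. The 6 blood markers summed to at most 22.4 normalized reads in any library. The part of these markers in the values below was not tested, and in bulk libraries fewer cells of a kind and less RNA per cell cannot be told apart.

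The coding sequences of 4 members are printed to set genes with wide and narrow ranges side by side: the highest library was 6.02, 3.32 and 4.87 times the lowest for COX8A, COX6B1 and NDUFA1, and 1.58 times for COX7B, a membrane subunit of complex IV. Of all members, 10 had a range narrower than that of COX7B. They were read from the GENCODE 29 transcripts on GRCh38, 5′ to 3′ and without the stop codon, with every run of at least 5 G or C letters in capitals. COX8A has 207 coding bases with 65.7% GC and 7 such runs, COX6B1 has 258 with 55.04% and 6, NDUFA1 has 210 with 49.0% and 4, and COX7B has 240 with 44.6% and 0. NDUFA10, the member with the narrowest range (1.26-fold), has 1065 with 50.2% and 14, so these 4 do not stand for all members.
COX8A: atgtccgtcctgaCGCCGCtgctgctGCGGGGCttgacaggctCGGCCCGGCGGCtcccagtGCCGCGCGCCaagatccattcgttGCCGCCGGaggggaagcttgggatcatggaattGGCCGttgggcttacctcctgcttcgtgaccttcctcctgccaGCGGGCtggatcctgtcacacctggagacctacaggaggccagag
COX6B1: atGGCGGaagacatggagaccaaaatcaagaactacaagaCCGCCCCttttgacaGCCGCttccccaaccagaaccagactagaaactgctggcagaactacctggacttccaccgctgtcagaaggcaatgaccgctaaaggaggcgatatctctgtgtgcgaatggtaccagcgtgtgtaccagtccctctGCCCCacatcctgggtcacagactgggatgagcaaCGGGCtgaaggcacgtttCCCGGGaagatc
NDUFA1: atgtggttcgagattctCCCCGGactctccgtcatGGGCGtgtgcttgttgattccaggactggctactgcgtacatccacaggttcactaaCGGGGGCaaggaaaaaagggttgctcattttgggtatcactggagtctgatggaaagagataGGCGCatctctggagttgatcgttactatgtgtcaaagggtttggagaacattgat
COX7B: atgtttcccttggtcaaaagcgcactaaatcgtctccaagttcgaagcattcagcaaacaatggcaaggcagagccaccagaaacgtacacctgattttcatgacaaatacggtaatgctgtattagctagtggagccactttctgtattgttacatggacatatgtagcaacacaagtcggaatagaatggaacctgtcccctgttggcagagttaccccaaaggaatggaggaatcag

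Promoters of 5 members that differed between the P13 and P12 libraries are printed next, to show which start-site letters these genes do and do not share. Each is the 150 bases before the RefSeq start on GRCh38.p14, 5′ to 3′ on the strand of the gene. Capitals mark the letters CCGGAAG or their reverse complement, a motif of ETS factors such as GABPA, which is known to regulate respiratory chain genes.
COX8A (chr11:63974470-63974619, plus strand): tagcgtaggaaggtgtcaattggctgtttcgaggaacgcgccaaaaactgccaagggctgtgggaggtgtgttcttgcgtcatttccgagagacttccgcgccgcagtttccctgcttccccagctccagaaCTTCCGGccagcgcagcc
COX6A1 (chr12:120437963-120438112, plus strand): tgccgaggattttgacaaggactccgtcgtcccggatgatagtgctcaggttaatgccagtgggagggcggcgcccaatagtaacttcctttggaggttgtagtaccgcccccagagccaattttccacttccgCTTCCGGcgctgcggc
COX6B1 (chr19:35648173-35648322, plus strand): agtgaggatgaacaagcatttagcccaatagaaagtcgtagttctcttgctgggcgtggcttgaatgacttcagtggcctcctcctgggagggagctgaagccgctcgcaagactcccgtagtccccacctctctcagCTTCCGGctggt
NDUFA1 (chrX:119871682-119871831, plus strand): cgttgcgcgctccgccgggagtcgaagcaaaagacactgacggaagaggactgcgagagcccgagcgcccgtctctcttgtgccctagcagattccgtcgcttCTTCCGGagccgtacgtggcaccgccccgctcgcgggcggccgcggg
UQCR10 (chr22:29767219-29767368, plus strand): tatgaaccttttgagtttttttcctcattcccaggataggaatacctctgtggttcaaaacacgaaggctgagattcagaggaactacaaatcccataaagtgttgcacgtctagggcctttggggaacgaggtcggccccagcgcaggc

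COX8A, COX6A1, COX6B1 and NDUFA1 each hold 1 match and UQCR10 holds none. Of the 13 members called between P13 and P12, 12 had a promoter in the table, and 6 of these held the ETS letters in this window (also COX5B and NDUFB7) while 6 did not (also COX5A, NDUFA8, NDUFA9, NDUFS4 and SDHA). Over the full window of 250 bases before to 50 after the start, 51 of the 59 members matched a RefSeq promoter. The ETS letters were in 15 of the 51 (29.4%), against 10.7% of all 27305 promoters of the same length. GCATGCG, the centre of the motif of NRF1, another known regulator of these genes, was in 9 (17.6%, against 4.13%), and AGATGGC, part of the motif of YY1, was also in 9 (17.6%, against 5.61%). At least 1 of the 3 motifs was in 25 (49.0%, against 18.5%). Matches were sought on both strands, the motifs may overlap, and a match describes letters and not binding.

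The members' transcripts were abundant and short. The median length of the principal transcript was 991 bases, against 3322 for 11613 protein-coding genes with a mean of at least 50 normalized reads, while the median GC content was nearly the same (48.5% and 49.0%). Per kilobase of annotated exon, the highest mean levels were those of NDUFS5 (3390 normalized reads), a subunit on the intermembrane-space side of complex I, COX8A (2854), the smallest subunit of complex IV, and CYC1 (2434), cytochrome c1 of complex III. Reads of all members took 0.379%, 0.428% and 0.505% of the library at P8, P12 and P13 in the GOLPH3-labelled libraries. In the libraries labelled Vector they took 0.351%, 0.407% and 0.521% at P11, P12 and P13. The Wilson 95% intervals, such as 0.348% to 0.354% for the Vector library at P11, did not overlap between any 2 libraries, but they count reads as independent and cover counting error only, while libraries of a group differed by far more than counting error over all genes (chi-square per degree of freedom 65.3 to 133). Within each group the P13 library had the highest share.

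A few members were at or near 0. NDUFA6 had no reads in any library, and NDUFA3 had at most 5 reads in any library, with levels of 0, 0.825 and 0 normalized reads in the GOLPH3-labelled libraries and 2.19, 1.03 and 4.29 in the Vector-labelled ones at P11, P12 and P13. Both encode supernumerary subunits of complex I. Among the 12 protein-coding genes within 100000 bases of NDUFA3, 4 (VSTM1, TARM1, LENG1 and TSEN34) had at most 3 reads in every library. Among the 7 around NDUFA6, 2 (WBP2NL and SMDT1) did. NDUFA7 lay between 11.5 and 32.2 normalized reads, and NDUFV2, an iron-sulfur subunit of the NADH-oxidising arm, between 29.8 and 127. Why these genes are listed so low was not tested. In the annotation 33.5% of the exon bases of NDUFA7 and 28.4% of those of NDUFV2 also belong to another gene.

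The spread of the members over the 6 libraries was wide. For 29 of the 58 tested the highest library was over 2 times the lowest, for 7 it was over 4 times, and the median ratio was 2.02. The lowest of the 6 values was in the Vector library at P11 for 24 members, in the GOLPH3 library at P12 for 16, among them all 4 genes of complex II, and in the GOLPH3 library at P8 for 8, counting NDUFA3, which was at 0 there and at P13. It was in the Vector library at P12 for 6 and in the P13 libraries for 3 (GOLPH3) and 1 (Vector). The highest was in the GOLPH3 library at P13 for 27, in the Vector library at P13 for 14 and in the Vector library at P11 for 9. The 56 members with a mean of at least 50 normalized reads lay, at the median, 0.32 above the 6-library mean on the log2 scale in the GOLPH3 library at P13 and 0.26 above it in the Vector library at P13. They lay 0.31 below it in the Vector library at P11 and 0.16 below it in the GOLPH3 library at P8, while the median of all 11613 protein-coding genes lay between -0.02 and 0.05 in the 6 libraries.

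**Figure D1:**
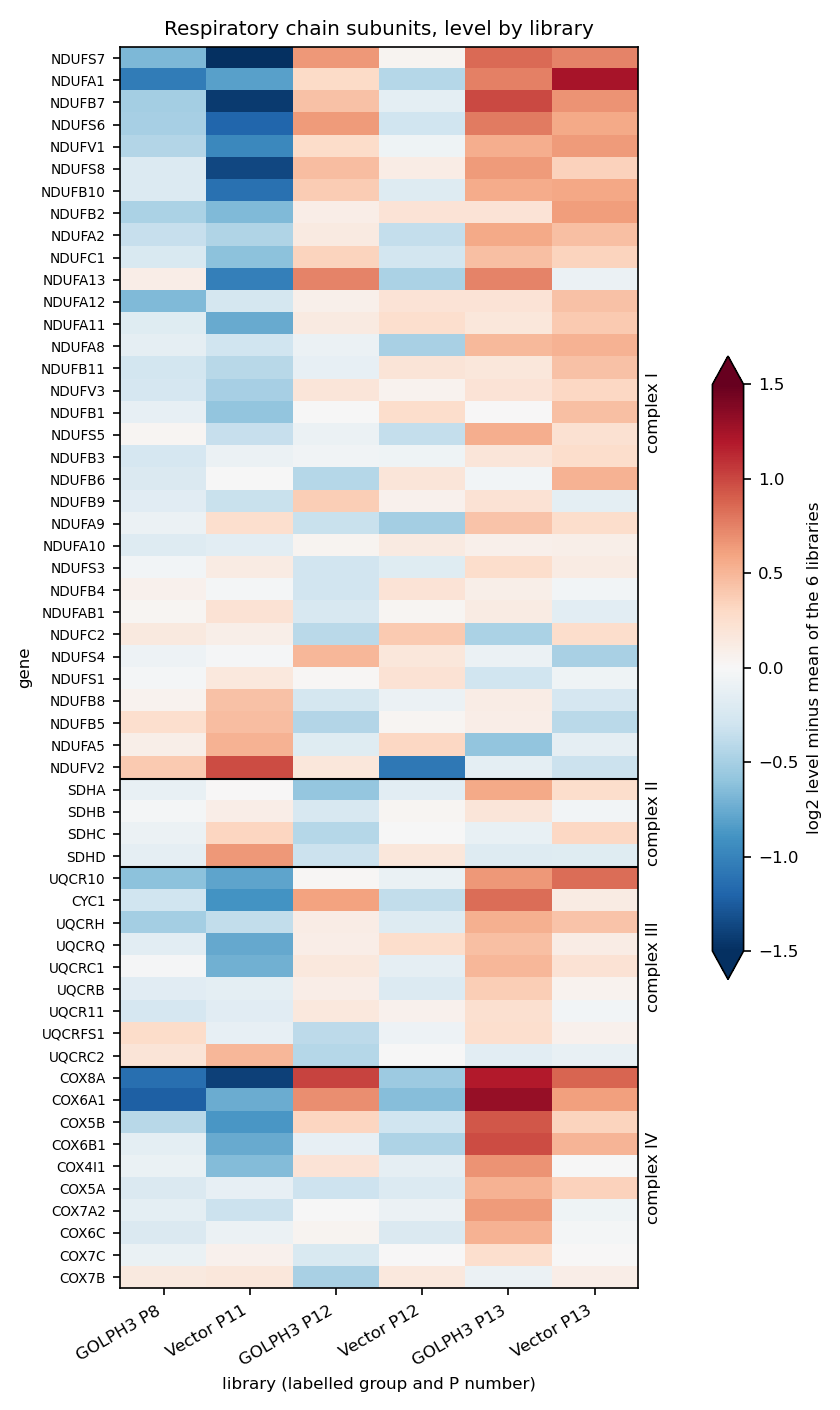
Level of 56 subunit genes in each library, as the log2 level minus the mean over the 6 libraries (colour), with genes in rows grouped by complex and libraries in columns ordered by P number. Complex IV members such as COX8A and COX6A1 lie under their mean at P8 and P11 and over it in both P13 libraries, while the medians of complex II lie between -0.37 and 0.21.

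COX8A (chr11:63974607-63976543, plus strand) had the widest range of all members with over 5 reads, 6.02-fold. It had 517, 2297 and 2580.1 normalized reads at P8, P12 and P13 in the GOLPH3-labelled libraries and 428, 775 and 2085 at P11, P12 and P13 in the Vector-labelled ones. Its 3 highest libraries thus included both P13 libraries, and the groups overlapped. In the annotation 34.5% of its exon bases are shared with the same-strand gene AP000721.1.

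COX6A1 (chr12:120438090-120440742, plus strand), a subunit of complex IV in non-muscle tissue, had the next widest range, 5.76-fold. It had 268, 1013 and 1547 normalized reads at P8, P12 and P13 in the GOLPH3-labelled libraries and 374, 401 and 957 at P11, P12 and P13 in the Vector-labelled ones. Processed copies of COX6A1 in the table had a mean of 107 normalized reads, so part of its signal could be shared with them.

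At the other end, COX7C, a small membrane subunit of complex IV, had 3031, 2775 and 3843 normalized reads at P8, P12 and P13 in the GOLPH3-labelled libraries and 3388, 3250.5 and 3242 at P11, P12 and P13 in the Vector-labelled ones, a range of 1.38-fold. NDUFA10, a complex I subunit, had the narrowest range, 1.26-fold.

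**Figure D2:**
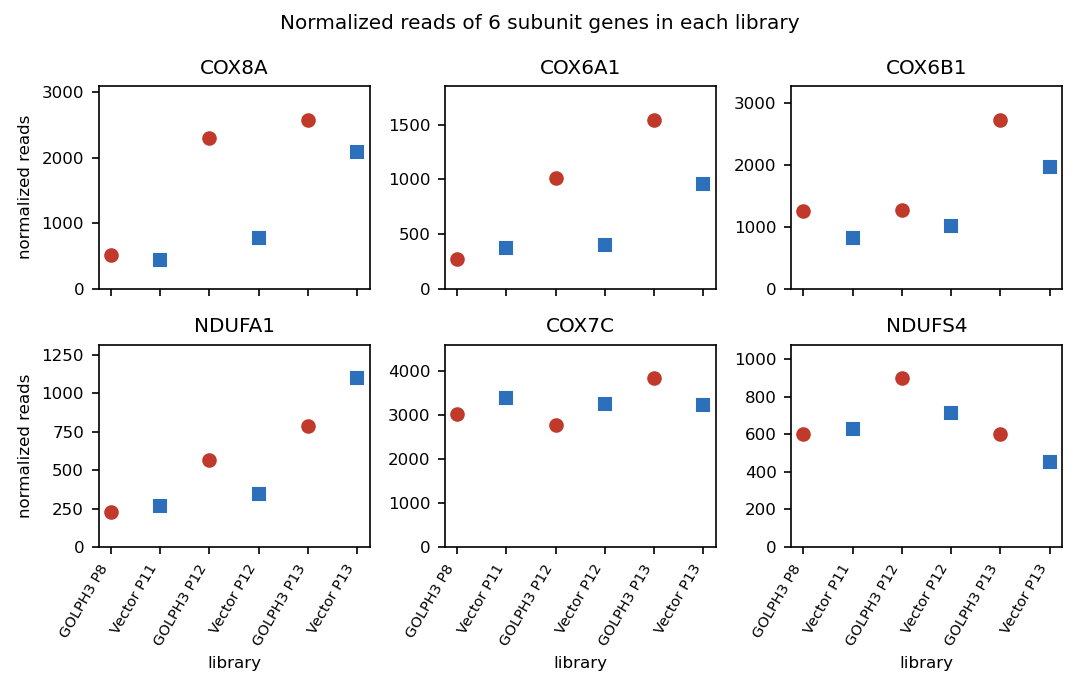
Normalized reads of 6 subunit genes (vertical axes, each from 0) in the 6 libraries (horizontal axis, ordered by P number), with circles for GOLPH3 and squares for Vector. COX8A, COX6A1, COX6B1 and NDUFA1 are lowest at P8 or P11, COX7C stays within 1.38-fold, and NDUFS4 is lowest in the Vector library at P13.

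Did the subunits of the respiratory chain differ between the libraries labelled GOLPH3 and those labelled Vector? In limma, 0 of the 58 members tested had an adjusted p under 0.05, where 5.07% of all 26536 genes did (0.953% higher, 4.12% lower in the GOLPH3-labelled libraries), and 7.22% of the protein-coding genes (1.45% higher). At an unadjusted p under 0.05 there was 1 member, against 17.6% of all genes and 3424 of the 15604 protein-coding genes. On the recovered reads, edgeR and DESeq2 each called 0 members with 1 at an unadjusted p under 0.05, and no share over all genes is given here for these fits. The median log2 difference of the members was 0.08, beside 0.02 for all genes tested and -0.03 for the protein-coding genes. By complex it was -0.003 for complex I, -0.25 for complex II, 0.10 for complex III and 0.40 for complex IV. Of the 58 members, 47 differed by less than 0.5 on the log2 scale. For 32 the 95% confidence interval lay within a doubling and a halving, and for the rest it did not.

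The single member with an unadjusted p under 0.05 was NDUFA13 (chr19:19515736-19529054, plus strand), also known as GRIM-19, a complex I subunit. It had 92.3, 144 and 145 normalized reads at P8, P12 and P13 in the GOLPH3-labelled libraries and 41.6, 61.8 and 80.7 at P11, P12 and P13 in the Vector-labelled ones. Every library of one group lay above every library of the other, with means of 127 ± 30.3 and 61.4 ± 19.5 (SD, n = 3 each). The log2 difference was 1.06 (standard error 0.42, 95% confidence interval 0.15 to 1.97) and did not pass the adjustment over all genes (adjusted p = 0.202, limma). In the annotation 21.0% of its exon bases are shared with same-strand genes, among them YJEFN3.

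The groups also did not overlap for NDUFB6 and SDHC, which were lower in the GOLPH3-labelled libraries, and for NDUFA3, which had too few reads for a fold. Over all genes tested 22.0% had groups that did not overlap, so 4 of 58 was below that background. NDUFB6, a complex I subunit of the membrane arm, had 582, 506 and 659.7 normalized reads against 674, 768 and 971 in P order (log2 difference -0.46, standard error 0.29, adjusted p = 0.462, limma). SDHC, a haem-binding membrane anchor of complex II, had 1383, 1098 and 1364 against 1843, 1462 and 1829 (log2 difference -0.42, standard error 0.27, adjusted p = 0.474, limma).

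Among the subunits that carry the electrons, the values differed from gene to gene and none passed the test. CYC1 had 3594, 6744 and 7884 normalized reads at P8, P12 and P13 in the GOLPH3-labelled libraries and 2371, 3422 and 4826 at P11, P12 and P13 in the Vector-labelled ones. The groups overlapped, and the log2 difference was 0.76 (95% confidence interval -0.04 to 1.56, adjusted p = 0.311, limma). The Rieske iron-sulfur protein UQCRFS1 had a log2 difference of 0.09 (standard error 0.29) and the core subunit UQCRC1 one of 0.42 (standard error 0.31). In complex I the flavin-binding NDUFV1 had a log2 difference of 0.26 (standard error 0.41). The iron-sulfur subunits NDUFS1, NDUFS7, NDUFS8 and NDUFV2 had log2 differences of -0.21, 0.55, 0.60 and 0.28. NDUFS6, a zinc-binding subunit near these clusters, had one of 0.62, and NDUFA5, at the matrix arm, one of -0.46.

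In complex II the flavoprotein SDHA, the iron-sulfur subunit SDHB and the membrane anchor SDHD had log2 differences of -0.08, -0.06 and -0.43, with standard errors of 0.36, 0.27 and 0.30. Reads of SDHA are uncertain, since 3 of its pseudogenes in the table had a summed mean of 435 normalized reads, more than the 281 of SDHA itself. In complex IV, COX4I1, next to the catalytic core, had a log2 difference of 0.52 (standard error 0.31) and the zinc-binding COX5B one of 0.56 (standard error 0.40). COX5A, on the matrix side, had one of -0.01 (standard error 0.31).

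**Figure D3:**
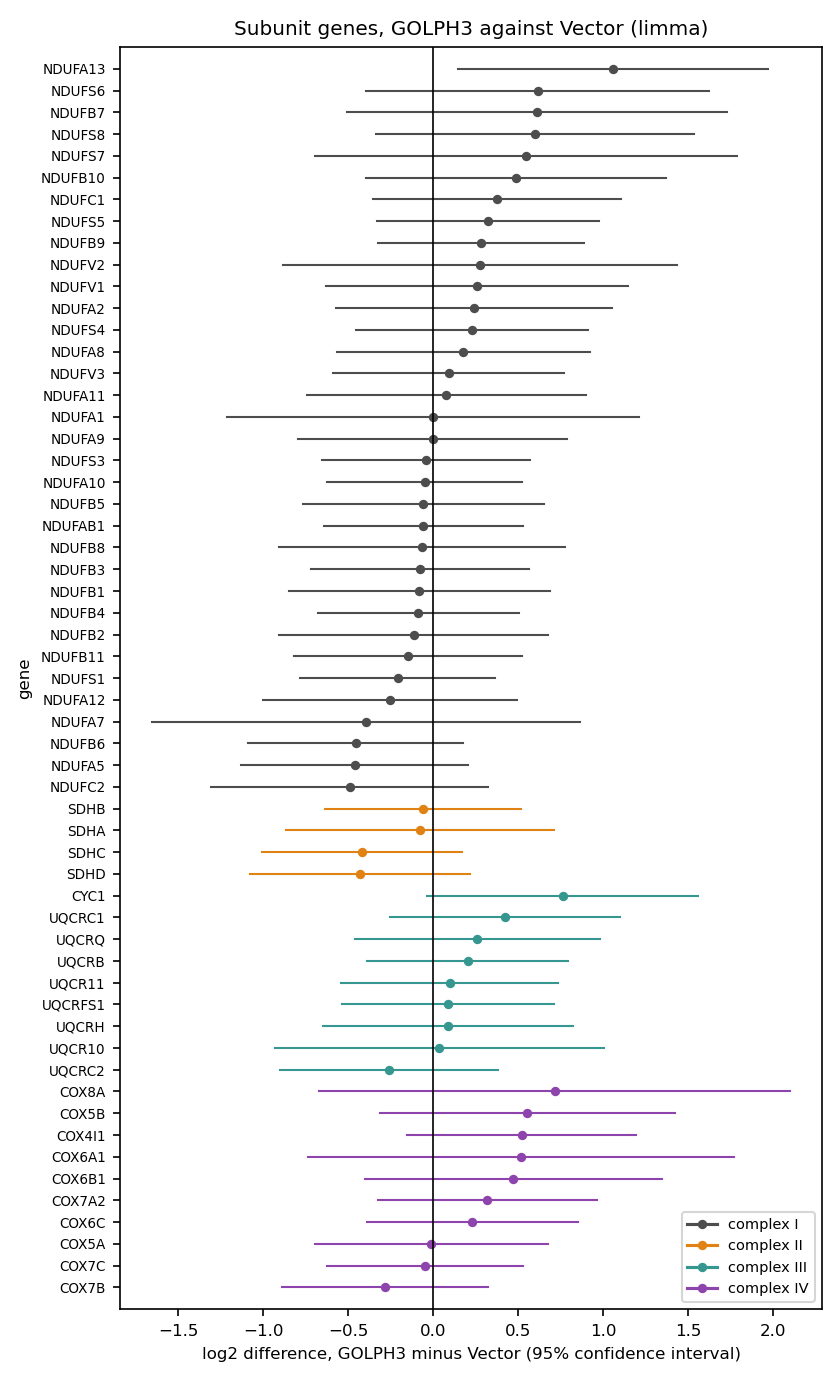
Log2 difference between the libraries labelled GOLPH3 and Vector (horizontal axis, points) with its 95% confidence interval (lines) for the 57 members with over 5 reads, in rows grouped and coloured by complex. The interval of NDUFA13 alone lies wholly on one side of 0, and no member passed the adjustment over all genes.

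With the P number as a block, 7 of the 58 members (12.1%) were called, where 22.9% of all genes were (9.93% higher). Of the 15604 protein-coding genes 33.1% were called, 2226 of them higher. Without adjustment 16 members had a p under 0.05, against 32.5% of all genes and 6834 of the 15604 protein-coding genes. COX6A1, COX8A, CYC1, COX5B, NDUFA13 and NDUFS6 were called higher in the GOLPH3-labelled libraries, and NDUFB6 lower. P8 and P11 each hold a single library, so this fit rests on the pairs at P12 and P13. It leaves a single residual degree of freedom, so its spread is mostly borrowed from other genes. COX6A1, for example, differed by 1.33 on the log2 scale at P12 and by 0.69 at P13, and CYC1 by 0.98 and 0.71. Over the members, 24 were higher in the library labelled GOLPH3 at both P numbers, 16 were lower at both, and 18 went opposite ways.

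How far did the members differ between the libraries with P13 and those with P12, beside the labelled group? Of the 58 members 13 were called (22.4%), 12 higher and 1 lower at P13. Of all genes tested 11.5% were called, 5.97% higher and 5.49% lower, and of the protein-coding genes 17.7% were called, 9.59% higher. The members' count in both directions was thus near that of protein-coding genes, and the share called higher, 20.7%, stood beside 9.59%. At an unadjusted p under 0.05 there were 22 of the 58 members, against 23.2% of all genes and 5150 of the 15604 protein-coding genes. Within each group separately, the P13 library was above the P12 library for 39 of the 58 members (67.2%), against 31.0% of all genes, below it for 5 (background 29.8%), and mixed for 14. These 2 backgrounds are over all 26536 genes tested, of which 15604 were protein-coding, and are not given for the latter alone. The median log2 difference of the members was 0.28, beside 0.02 for all genes and 0.06 for the protein-coding genes. By complex it was 0.22, 0.25, 0.35 and 0.48 for complexes I to IV.

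Complex IV had 5 of its 10 members called higher. COX6B1 (chr19:35648223-35658861, plus strand), which faces the intermembrane space, had 1268 and 2726 normalized reads at P12 and P13 in the GOLPH3-labelled libraries and 1004 and 1962 in the Vector-labelled ones. Its log2 difference was 1.03 (standard error 0.19, adjusted p = 4.13e-05, limma). At P8 and P11, outside this test, it had 1247 and 821 normalized reads, so these libraries were near the P12 level or below it. COX6A1, whose levels are given above, rose by 0.93 (standard error 0.20, adjusted p = 0.000487, limma). COX8A rose by 0.80 (standard error 0.20, adjusted p = 0.00356, limma), with a difference of 1.43 in the Vector pair and of only 0.17 in the GOLPH3 pair. COX5A and COX5B rose by 0.69 and 0.62 on the log2 scale, and in both of them each pair differed by at least 0.55. COX4I1, COX6C, COX7A2, COX7B and COX7C did not pass the test.

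In complex I, NDUFA1 (chrX:119871487-119876662, plus strand), a short subunit of the membrane arm, had 568 and 788 normalized reads at P12 and P13 in the GOLPH3-labelled libraries and 347 and 1098 in the Vector-labelled ones. It had 225 at P8 and 265 at P11. Its log2 difference was 1.07 (standard error 0.22, adjusted p = 0.000178, limma). In the annotation 44.5% of its exon bases are shared with RNF113A on the opposite strand, and the sources used here do not say whether the counting used the strand, so their reads may not be told apart. NDUFA8, on the intermembrane-space side, had 705 and 1056 normalized reads against 534 and 1081 in the same order, and rose by 0.80 (standard error 0.20, adjusted p = 0.00323, limma). NDUFB7, NDUFS5 and NDUFA9 rose by 0.69, 0.61 and 0.77 on the log2 scale.

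The 1 member called lower was NDUFS4 (chr5:53560633-53683340, plus strand), an accessory subunit of the NADH-oxidising arm known for its mutations in Leigh syndrome. It had 898 and 599 normalized reads at P12 and P13 in the GOLPH3-labelled libraries and 713 and 451 in the Vector-labelled ones, a log2 difference of -0.62 (standard error 0.21, adjusted p = 0.0337, limma). It had 602 at P8 and 626 at P11.

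In complex III only UQCR10, a small membrane subunit, was called. It had 465 and 722 normalized reads at P12 and P13 in the GOLPH3-labelled libraries and 429 and 821 in the Vector-labelled ones, a log2 difference of 0.78 (standard error 0.21, adjusted p = 0.00576, limma). UQCRH, the hinge protein, had a difference of 0.52 (standard error 0.19, adjusted p = 0.0633). In complex II SDHA alone was called, with a difference of 0.79 (standard error 0.24, adjusted p = 0.0217, limma), but under none of 7 alternatives (adjusted p = 0.0663 in edgeR, 0.140 in DESeq2 and 0.224 after correction for GC and length), and the caution on its pseudogenes holds here too. COX8A and NDUFA9 were each called under 1 of the 7 alternatives, NDUFS4 under 2, and the other 9 members under 3 to 5. SDHC had a difference of 0.32 (standard error 0.19).

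**Figure D4:**
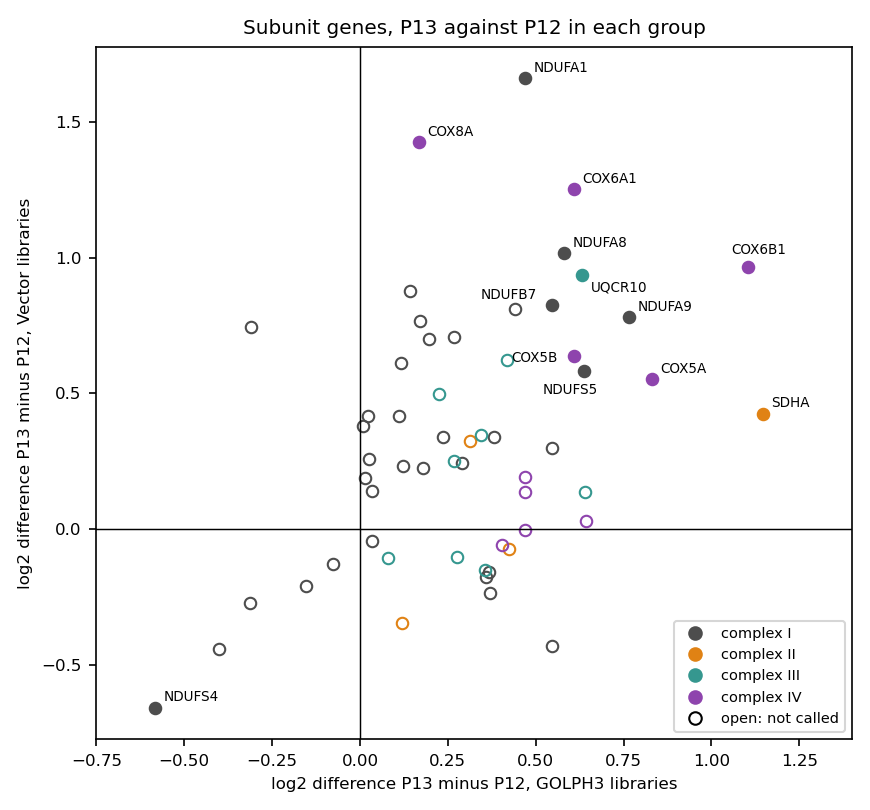
Log2 difference between the P13 and the P12 library in the GOLPH3 pair (horizontal axis) and in the Vector pair (vertical axis) for 57 members, coloured by complex, filled where limma called the member over both pairs. Of the 13 filled points 12 lie in the upper right and NDUFS4 in the lower left.

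This fit has 4 libraries and a single residual degree of freedom, so its spread is mostly borrowed from other genes. With quantile normalization or without the group term, 0 members and 0 of all genes were called, with 17 and 5 members at an unadjusted p under 0.05. With a pseudocount of 0.1 COX6B1 was the only member called, and no share over all genes is given here for that fit.

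The deviations of the libraries went with the GC content of the transcripts to different degrees. Across 11613 protein-coding genes, the Spearman correlation of a library's deviation from the 6-library mean with transcript GC was -0.79 in the Vector library at P11 and -0.43 in the Vector library at P12. In the GOLPH3 libraries it was -0.18 at P8, 0.34 at P12 and 0.75 at P13, and in the Vector library at P13 it was 0.31. Over the 56 members the values were -0.70, -0.29, -0.36, 0.56, 0.61 and 0.42 in the same order. These correlations are across genes, which are not independent, and the deviations of the 6 libraries sum to 0 for each gene.

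The 14 members with at least 55% GC, such as COX8A, NDUFB7 and CYC1, had median deviations of -0.93 in the Vector library at P11, -0.21 in the GOLPH3 library at P8, and 0.66 and 0.41 in the GOLPH3 and Vector libraries at P13. The 16 members with under 45% GC stayed between -0.21 and 0.09 in all 6 libraries. Among the protein-coding genes, the 3773 with at least 55% GC had medians of -0.73 in the Vector library at P11 and 0.59 in the GOLPH3 library at P13. The 4115 with under 45% had 0.50 and -0.47 there, while the low-GC members had 0.03 and 0.09. The low-GC members thus did not move as far as protein-coding genes of like GC in these 2 libraries. The members called higher at P13 had a median GC of 52.7%, beside 47.5% for those not called. Short transcripts moved in the same way: the 465 protein-coding genes under 1000 bases had median deviations from -0.47 in the Vector library at P11 to 0.54 in the GOLPH3 library at P13.

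When each library was corrected for transcript GC and length, 12 members were called higher at P13 (20.7%) and 0 lower, where 8.97% of the 15604 protein-coding genes were called, 3.27% higher and 5.7% lower. Before adjustment 23 members had a p under 0.05, against 22.7% of these genes. Of these 12, 8 had been called without the correction: COX5A, COX6A1, COX6B1, NDUFA1, NDUFA8, NDUFA9, NDUFS5 and UQCR10. COX6C, COX7A2, NDUFB6 and UQCRB came in, and COX8A (adjusted p = 0.307, limma), NDUFB7, COX5B, SDHA and NDUFS4 went out. In the same correction 0 members were called between GOLPH3 and Vector, and 13 were when the P numbers were also blocked, 11 higher and 2 lower, where 36.2% of the genes were called (25.2% higher, 10.9% lower) and 45.1% had an unadjusted p under 0.05 (18 members). Of the 7 members called with that block before correction only COX6A1 and COX5B were among these 13. COX8A, CYC1, NDUFA13, NDUFS6 and NDUFB6 were not (adjusted p from 0.0576 to 0.468, limma). Whether the GC pattern comes from the cells or from library preparation was not tested.

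**Figure D5:**
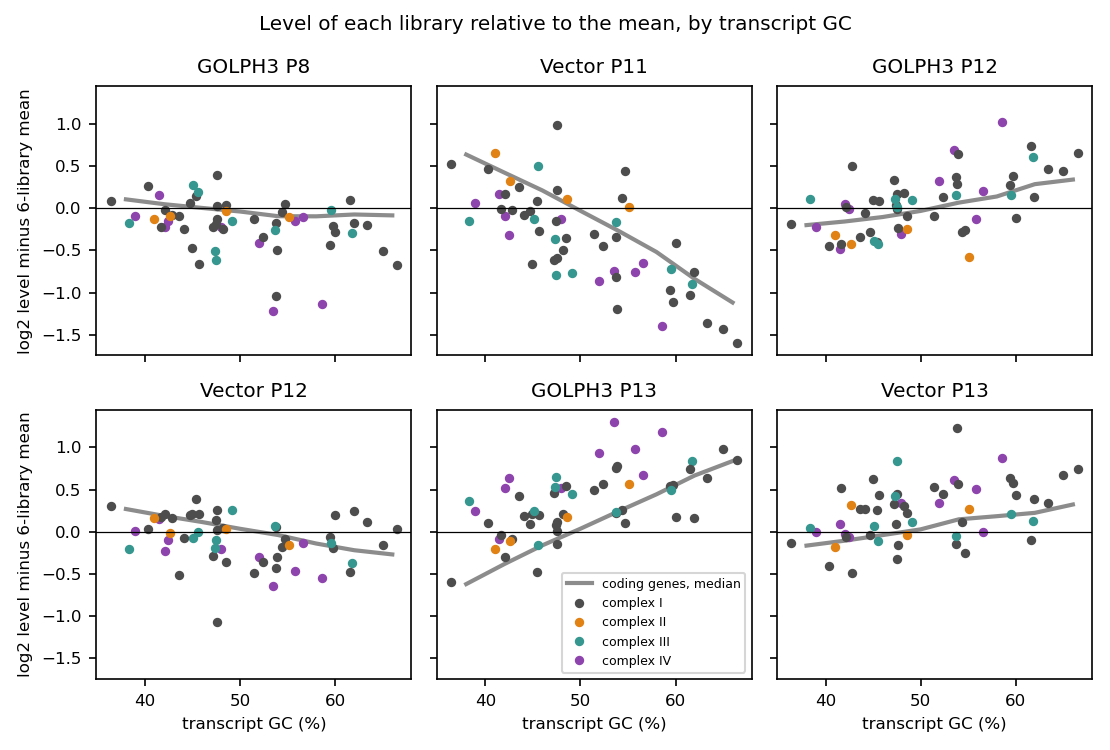
Log2 level minus the mean of the 6 libraries (vertical axis) against transcript GC in percent (horizontal axis) for 56 members, coloured by complex, 1 panel a library, with the median of protein-coding genes in bins of GC as a grey line. The line and the members fall with GC in the Vector library at P11 and climb with it in the GOLPH3 library at P13.

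The other genes of the pathway were compared between GOLPH3 and Vector in the same fit. None of the 13 subunits encoded in mitochondrial DNA was called (0 of 13, median log2 difference 0.29), and the same held for the 18 genes of ATP synthase (median 0.03), 48 assembly factors (-0.08), 16 genes of the citric acid cycle (-0.12), 76 tested genes of the mitochondrial ribosome (0.07) and 8 tested further subunits and isoforms (0.01). At an unadjusted p under 0.05 there were 11 genes among the 196 tested (5.61%), where 17.6% of all genes had one. Of 17 regulators 1 was called, PPARGC1A, a coactivator of mitochondrial biogenesis. It was at 0 in all 3 libraries labelled GOLPH3 and had 16.4, 37.1 and 41.2 normalized reads at P11, P12 and P13 in the Vector-labelled ones (adjusted p = 0.0004, limma). The regulators NRF1 and TFAM were not called, with log2 differences of 0.06 and -0.74.

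The mitochondrially encoded subunits did not follow the nuclear-encoded ones. Between P12 and P13 their median log2 difference was 1.15 in the GOLPH3 pair and -0.58 in the Vector pair, while the tested members had medians of 0.30 and 0.31. MT-CO1, the catalytic subunit of complex IV, had 305149, 161441 and 373580 normalized reads at P8, P12 and P13 in the GOLPH3-labelled libraries and 298494, 310022 and 198238 at P11, P12 and P13 in the Vector-labelled ones. It was chosen after its values were seen, as the core partner of the complex IV members. At P13 against P12, 3 of the 18 ATP synthase genes were called higher, as were 9 of the 76 mitochondrial ribosome genes, with 2 of the latter lower. As shares called higher these are 16.7% and 11.8%, beside 9.59% of the protein-coding genes. Of the 48 assembly factors 2 were called higher and 3 lower, and of the 17 regulators 3 higher and 1 lower. In the citric acid cycle 1 of 16 was called higher. None of the 13 mitochondrially encoded subunits or the 8 further subunits and isoforms was called. Over all 196 of these genes 24 were called (12.2%), 18 higher and 6 lower, where 17.7% of the protein-coding genes were called.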

How the data were processed

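The members and gene lists were chosen with earlier results of these data known. RNA of 6 HCT-116 libraries was sequenced by a service company, and the authors deposited a signal per gene and library. The submitters' processing notes name fastp 0.20.0, HISAT2 2.1.0, Cufflinks, featureCounts 1.6.1, DESeq2 and GRCh38, without their roles, and the annotation release is not given in the sources used here. Each library's values above 0 could be divided by 1 step to give whole reads for 100.0% of them (tolerance 0.05), so the deposited signal is read counts divided by a size factor. It is called normalized reads here and is not corrected for gene length. Second rows of 44 identifiers were added to the first. The deposited table gave symbols, and GENCODE 29 on GRCh38 gave coordinates and transcripts.

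limma 3.58.1 in R 4.3.3 was fitted to log2(value + 1) of the 26536 genes with at least 1 in at least 3 libraries, with a mean-dependent prior variance and Benjamini-Hochberg adjustment over all of them, so folds of low genes are understated. P13 was compared with P12 in 4 libraries with the group as a term. edgeR 4.0.16 and DESeq2 1.42.0 on the recovered reads, other scalings, filters and blocks were alternatives. The correction for GC and length (natural splines with 5 degrees of freedom), chosen after seeing the data, covered 15604 protein-coding genes. The genes named are called members, the members of each complex with the smallest p, redox or substrate-binding subunits, and extremes of level and spread. Scripts were tested on simulated data. Libraries of a group differed by more than sampling noise (chi-square per degree of freedom at least 65.3).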

Additional observations from a re-analysis of the deposited data

Results flagged for a closer look

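The following differences had opposite signs in the pairs compared, and whether they differ was not tested, since each pair holds 1 library of each kind. All are differences of log2 levels. Between GOLPH3 and Vector the 13 mitochondrially encoded subunits had a median of -0.42 at P12 and of 1.35 at P13, and between P13 and P12 they had a median of 1.15 in the GOLPH3 pair and of -0.58 in the Vector pair. The median GOLPH3 minus Vector difference was -0.42 at P12 and 0.10 at P13 for complex II, 0.017 and -0.015 for complex I, -0.0727 and 0.29 for the further subunits and isoforms, -0.0358 and 0.12 for ATP synthase, and -0.0795 and 0.11 for the regulators.

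Single members behaved likewise. SDHA had a GOLPH3 minus Vector difference of -0.42 at P12 and of 0.30 at P13, and SDHB one of -0.27 and 0.22. SDHB also differed between P13 and P12 by 0.42 in the GOLPH3 pair and by -0.0730 in the Vector pair, and SDHD by 0.12 and -0.35. NDUFA1 had a GOLPH3 minus Vector difference of 0.71 at P12 and of -0.48 at P13, NDUFA8 one of 0.40 and -0.0345, and NDUFV1 one of 0.34 and -0.10. UQCRFS1 had -0.32 and 0.18, UQCR10 had 0.12 and -0.19, and COX5A had -0.10 and 0.17. NDUFV2 differed between P13 and P12 by -0.31 in the GOLPH3 pair and by 0.74 in the Vector pair.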

How the results depend on the processing

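Between GOLPH3 and Vector 0 members were called in limma and under every alternative except the P number as a block (7 called) and that block with the GC and length correction (13 called, 11 of them higher, where 36.2% of protein-coding genes were called). With the latter, NDUFA9 turned from -0.003 to 0.88 and NDUFS1 from -0.21 to 0.59. The median of protein-coding genes was 0.27 in that fit, against -0.04 with the block alone, where NDUFA9 was at 0.17. Leaving out each library gave 0 called throughout, and the members' median log2 difference ranged from -0.06, without the GOLPH3 library at P13, to 0.21, without that at P8. The replicate numbers do not pair the libraries: deviations of same-numbered libraries correlated at -0.23, -0.15 and 0.26. With the replicate number as a block 0 members were called. The P number did not pair them clearly either. Over all genes the P12 pair and the P13 pair each correlated at 0.26, below 0.33 for GOLPH3 at P8 with Vector at P11. Over the members these 3 values were 0.13, 0.70 and 0.75, and GOLPH3 at P12 with Vector at P13 gave 0.52. P13 against P12 called 13 members in limma, 0 with quantile normalization, 1 with a pseudocount of 0.1, 0 without the group term, and 9 to 12 under the other alternatives. Except where a share of genes is printed, member counts under the alternatives of both comparisons have no background over all genes beside them. Such counts show how the calls depend on the processing, not how the members compare with other genes. The members' median there was 0.28, and 0.20 after the GC and length correction. With 1 pair alone it was 0.30 in the GOLPH3 pair and 0.31 in the Vector pair, with no test. Among the other pathway genes limma called 1 between GOLPH3 and Vector, and 0 with the filter of at least 1 in every library. With the P number as a block it called 35, 17.9% of the 196 tested, where 33.1% of the protein-coding genes were called. With the GC and length correction it called 5 (2.55%), where 2028 of the 15604 protein-coding genes were called. Both shares were thus below that of the protein-coding genes in the same fit. When a library was left out 0 to 3 were called (0 without any 1 of the Vector libraries, 3 without the GOLPH3 library at P8). Depth limits NDUFA3 and NDUFA6, where a difference was not detectable.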

Other observations

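Among the pathway genes outside the list, PPARGC1B, a coactivator related to PPARGC1A, was called higher at P13 than at P12. It had 332 and 742 normalized reads at P12 and P13 in the GOLPH3-labelled libraries and 430.2 and 687 in the Vector-labelled ones (log2 difference 0.91, standard error 0.21, adjusted p = 0.00135, limma, and adjusted p = 0.0191 after correction for GC and length). MYC was called lower at P13, with 14861 and 7724 normalized reads in the GOLPH3-labelled libraries and 7611 and 5561 in the Vector-labelled ones (log2 difference -0.70, standard error 0.21, adjusted p = 0.0161, limma). MRPL55, of the large subunit of the mitochondrial ribosome, rose by 1.12 (standard error 0.21, adjusted p = 6.24e-05, limma), and TTC19, an assembly factor of complex III, fell by 0.74 (standard error 0.19, adjusted p = 0.00391, limma). These genes were chosen after their values were seen.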
